A study of Mus musculus with 8 samples.

Results

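The genes described here are 34 genes of cholesterol and fatty acid synthesis, chosen by symbol as genes known to be controlled by the sterol regulatory element binding proteins (SREBPs), with their regulators and a sterol carrier. All 34 were present among the 27304 genes of the read count table, and all 34 passed the filter on low counts that kept 20093 genes. The rule uses symbols and no measured value, but the members were proposed with earlier results of these data known. The study sequenced heart RNA of male 129/Sv mice from 2 diets. The control group (4 libraries, titled Sham) ate a standard diet for 13 weeks. The adenine group (4 libraries) ate food with 0.15% adenine for 13 weeks, a diet that injures the kidney tubules and so models chronic kidney disease. No transgene or drug is named for either group, the labels used here give no age and describe no surgery. The labels do not state that each library came from a separate mouse, and the series' design text says that the samples had no replicates, although the titles number 4 in each group. They were treated here as 4 replicate libraries, so every SD, SE and p-value measures the spread between these libraries, which may be technical.

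Cells make cholesterol from acetyl-CoA through mevalonate, isoprenoid diphosphates, squalene and lanosterol, and they make fatty acids from the same acetyl-CoA through malonyl-CoA and palmitate. Both routes are switched on by SREBPs, which are held in the endoplasmic reticulum with the escort protein SCAP and the anchors INSIG1 and INSIG2 when sterol is plentiful, and are cut free in the Golgi when it is scarce. SREBP-2 acts mainly on sterol genes and SREBP-1c mainly on fatty acid genes. The adult heart burns fatty acids that it mostly takes up from blood, and its malonyl-CoA serves largely as a brake on the entry of fatty acids into mitochondria.

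No member passed the edgeR test, but 30 of the 34 members (88.2%) had a lower fitted level on the adenine diet, where 45.8% of all genes tested did. The log2 fold changes (adenine minus control throughout) ran from -1.47 to 0.17 with a median of -0.34, against a median of 0.05 over all genes. Upper-quartile scaling moved the median of all genes by more than 0.1, to 0.20, and with it 25 of 34 members and 29.7% of all genes were below 0. At an adjusted p under 0.05 from edgeR's quasi-likelihood test (Benjamini-Hochberg over all genes tested), 0 members were higher, where 0.0398% of all genes were, and 0 were lower, where 0% of all genes were. At an unadjusted p under 0.05, 13 members (38.2%) were lower, where 6.63% of all genes were, and 0 were higher, where 10.9% of all genes were. DESeq2 called 1 member lower, Fads2, where it called 0.871% of all genes lower, and 0 members higher, where it called 0.761% higher. The limma-voom fit called 0 members in either direction, where it called 0.0249% of all genes higher and 0% lower.

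For 6 members (17.6%) every adenine library was lower than every control, where 3.84% of all genes had that order. They were Acat2, Mvk, Srebf2, Stard4, Elovl5 and Fads2. The count depended on the scaling of the libraries: it was 3 with DESeq2 size factors (Acat2, Mvk and Fads2, with 3.68% of all genes) and 1 with upper-quartile factors (Fads2, with 1.57% of all genes). Fads2 alone kept its diets apart under each scaling and each omission of a library that was run. No member was higher without overlap, where 3.45% of all genes were. The members share libraries and regulators, so these counts describe the list and do not test it. Heart tissue was sequenced in bulk, so fewer cells of a type and less RNA per cell cannot be told apart in any of these values.

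**Figure D1:**
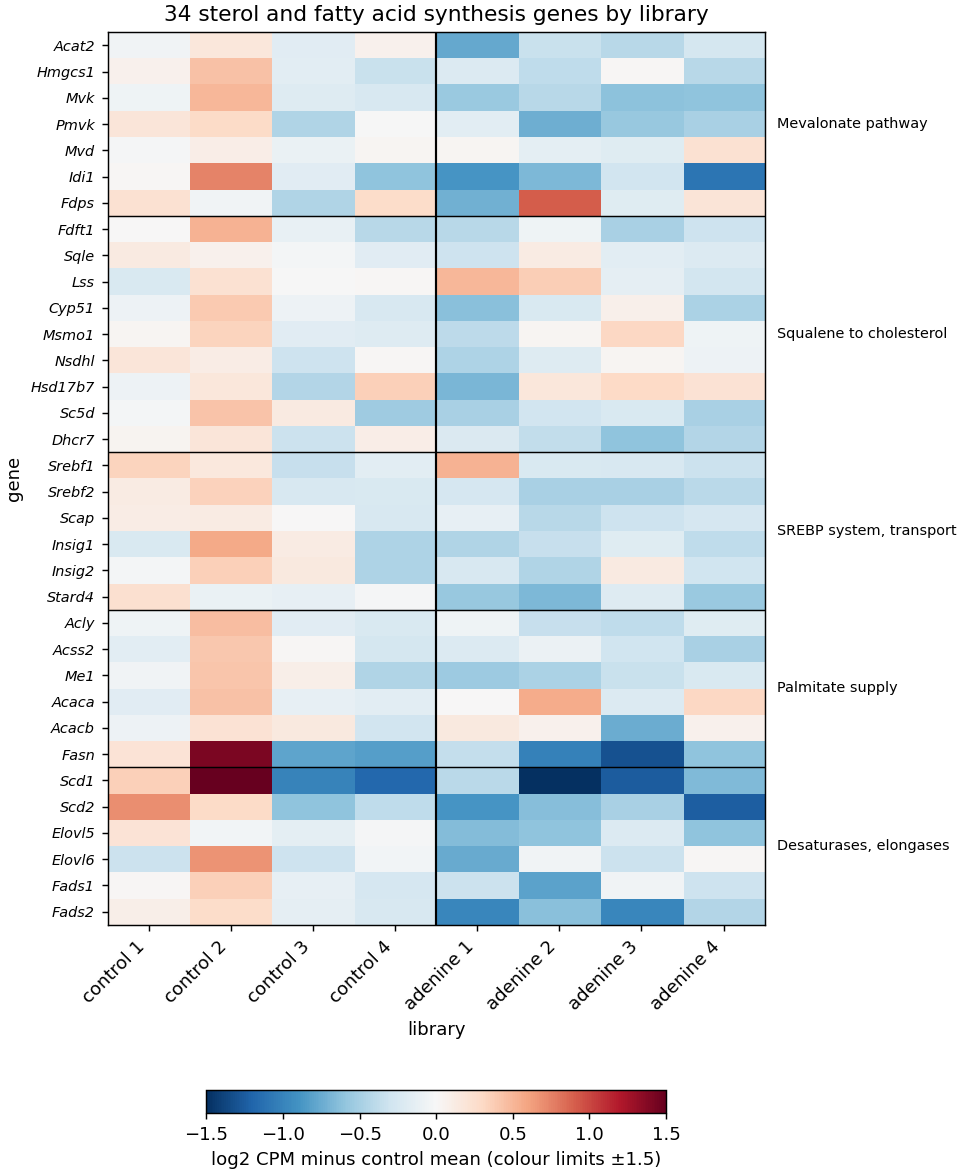
Each row is 1 of the 34 genes and each column 1 library, and colour is the log2 CPM minus the control mean, with colours cut at 1.5 in either direction. Control 2 is red in most rows, and the 4 adenine columns are mostly blue, with Fdps, Lss, Msmo1, Hsd17b7 and Acaca among the rows that break the pattern.

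Library totals ran from 15626620 to 33886385 counts, and 1 CPM stood for 16.4 reads in the shallowest library. Levels are given as CPM, counts scaled to a common library size with TMM factors. The 8 cardiomyocyte markers summed to 42250 to 54560 CPM in control libraries and 28390 to 49710 in adenine libraries, while the 6 hepatocyte markers summed to at most 5.66 and 11.01 CPM. Sums for other cell types differed between libraries and diets. In adenine 3 the 8 macrophage markers summed to 2668 CPM, against 299 to 455 in adenine 1, 2 and 4 and 376 to 637 in controls, and its cardiomyocyte sum was the lowest of the 8. The 5 erythroid markers present (of 6) summed to 7008 to 26050 CPM in controls and 1660 to 3085 on adenine. The 8 fibroblast markers summed to 1869 to 2923 CPM in controls and 1063 to 2364 on adenine, the 8 endothelial markers to 711 to 975 and 597 to 844, the 8 Schwann cell markers to 26.8 to 44.6 and 25.9 to 40.7, and the 5 brown adipocyte markers to 39.5 to 52.4 and 38.4 to 56.3. Sums are led by the most abundant markers. Taken gene by gene, 6 of 8 fibroblast markers had log2 fold changes below 0 with a median of -0.72. Pdgfra, Dpt, Tcf21 and Dcn were lower on adenine without overlap. Col1a1 and Col1a2 were above 0, at 0.545 and 0.894, with adenine 3 the highest library for both. Of the 8 endothelial markers, 7 were below 0 with a median of -0.38, and Pecam1, Tek and Emcn were lower without overlap. Flt1 was above 0, at 0.463, and its diets overlapped. Both medians were at least as far below 0 as the members' median of -0.34. Of the 5 erythroid markers, all 5 were below 0 and 4 were lower without overlap. Only 1 of the 8 macrophage markers was below 0, and their median was 0.433. No marker was at 0 in all libraries and none passed the edgeR test. The part of these cell types in the member values was not tested.

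One library, control 2, carried much of the contrast. It was the highest of the 8 libraries for 23 of the 34 members, where it was the highest for 22.1% of all genes. The median member stood 0.34 log2 above the control mean in control 2, and at 0.02, -0.16 and -0.23 in controls 1, 3 and 4. In adenine 1 to 4 that median was -0.40, -0.35, -0.27 and -0.32, below each of the controls. Without control 2, 27 of 34 members had a log2 fold change below 0 (42.0% of all genes), 5 members (14.7%) were lower at an unadjusted p under 0.05 (3.59% of all genes), and 4 were lower without overlap (4.56% of all genes). Those 4 were Acat2, Mvk, Stard4 and Fads2, and the same 4 were found without adenine 4, with 4.90% of all genes. Scaling factors were estimated anew at each omission, and that of adenine 3 moved between 0.942 and 1.07, so a separation could end when a library was left out. Without adenine 3, the library with the high macrophage sum, 28 of 34 members were below 0 and 9 were lower without overlap, where 8.14% of all genes were. Without control 4, the count of members without overlap was 10, where 9.59% of all genes were.

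**Figure D2:**
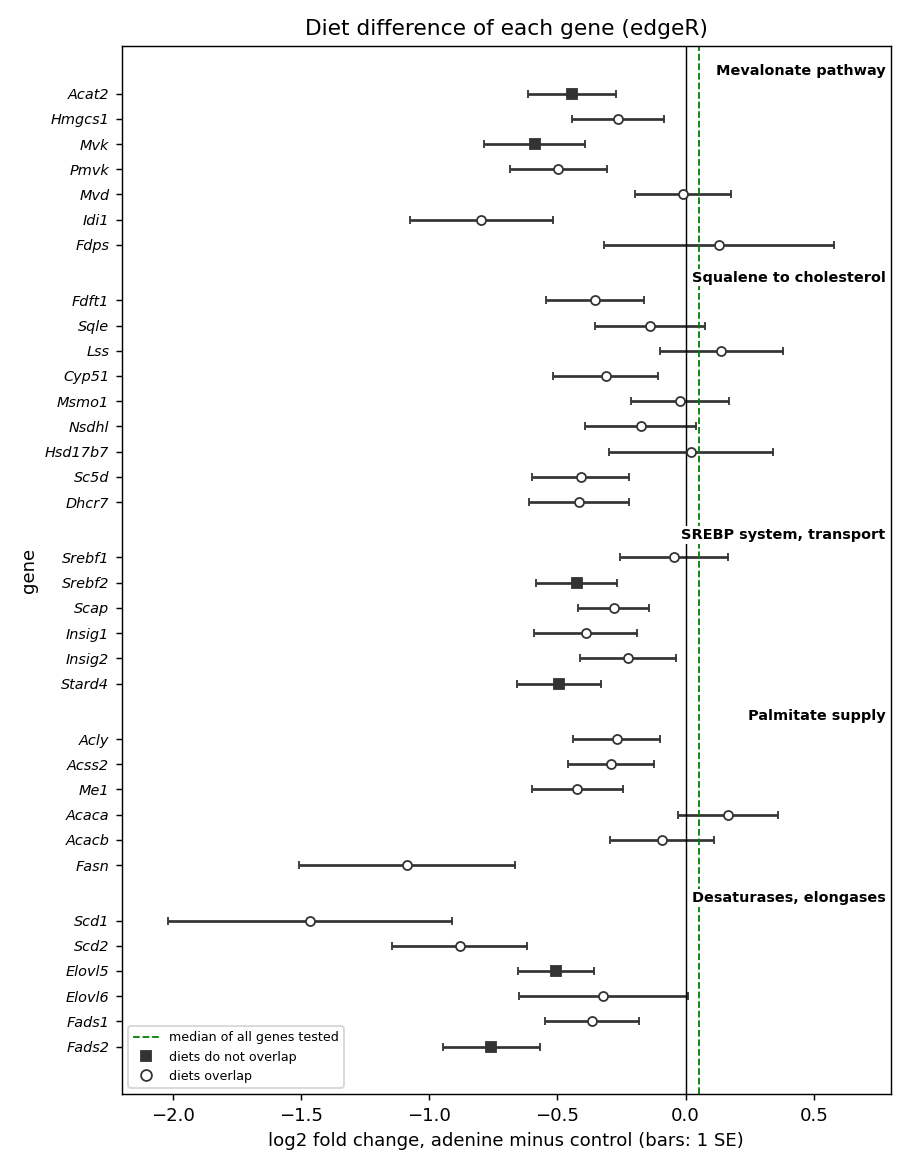
Points are the fitted log2 fold changes (adenine minus control) of the 34 genes with bars of 1 standard error, grouped by role, and the dashed line is the median of all genes tested, 0.05. Filled squares mark the 6 genes whose diets did not overlap, and the widest bars among the lipogenic genes belong to Fasn and Scd1.

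The early sterol pathway, from acetyl-CoA to farnesyl diphosphate, had 6 of 7 members below 0 and a median log2 fold change of -0.44. Mvk encodes mevalonate kinase, which phosphorylates mevalonate. It was at 8.54, 12.6, 7.79 and 7.57 CPM in controls 1 to 4 and at 6.04, 6.67, 5.80 and 5.83 CPM in adenine 1 to 4. All 4 adenine libraries lay below the lowest control, and the means were 9.13 ± 2.37 and 6.08 ± 0.40 CPM (SD, n = 4 each). The log2 fold change was -0.59 (SE 0.20), with an edgeR adjusted p of 0.239.

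Acat2, the cytosolic thiolase that joins acetyl-CoA units, was at 8.93, 10.4, 8.23 and 9.67 CPM in controls and at 5.44, 7.34, 6.94 and 7.70 CPM on adenine. The diets did not overlap, and the log2 fold change was -0.44 (SE 0.17, edgeR adjusted p = 0.265). Its transcript shares 97.7% identity over 1477 bases with Acat3 (0.98 to 2.14 CPM) and 98.7% over 445 bases with Tcp1 (61.3 to 138 CPM), so its count is uncertain where reads were shared.

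Idi1, the isomerase that makes dimethylallyl diphosphate, was at 8.90, 14.8, 7.82 and 5.77 CPM in controls and at 4.72, 5.50, 7.16 and 4.08 CPM on adenine. Control 2 was the highest and adenine 4 the lowest, with control 4 inside the adenine range. Its log2 fold change of -0.80 (SE 0.28, edgeR adjusted p = 0.247) was the lowest of the 16 sterol synthesis genes, and its count is uncertain because 2 processed pseudogenes match it at 97.7% identity or more. Pmvk, phosphomevalonate kinase, was at 16.02, 17.2, 10.3 and 14.1 CPM in controls and at 12.7, 8.499, 9.55 and 10.1 CPM on adenine. Control 3 lay within the adenine range, and the log2 fold change was -0.50 (SE 0.19, edgeR adjusted p = 0.263).

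The 3 remaining genes of this stretch moved less. Hmgcs1, the cytosolic HMG-CoA synthase, ranged from 23.5 to 40.3 CPM in controls and from 22.2 to 30.1 CPM on adenine, with a log2 fold change of -0.26 (SE 0.18). Mvd, the mevalonate diphosphate decarboxylase, had almost equal means of 5.45 ± 0.32 and 5.40 ± 0.74 CPM (SD, n = 4 each). Fdps, the farnesyl diphosphate synthase, had only 12 to 31 reads per library, and its log2 fold change of 0.13 had an SE of 0.45. It also overlaps Gm43738 over 26.7% of its exon bases and has 4 near-identical pseudogenes, so no direction can be read from it.

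The late sterol pathway, from squalene to cholesterol, had 7 of 9 members below 0 with a median log2 fold change of -0.18, and none of the 9 was without overlap. Dhcr7, which reduces 7-dehydrocholesterol to cholesterol, was at 6.74, 7.45, 5.22 and 7.03 CPM in controls and at 5.64, 5.08, 4.30 and 4.82 CPM on adenine. Only control 3 lay within the adenine range, and the log2 fold change was -0.42 (SE 0.19, edgeR adjusted p = 0.288). Sc5d, the desaturase that makes 7-dehydrocholesterol, was at 15.6, 21.5, 17.6 and 11.01 CPM in controls and at 11.4, 13.1, 13.6 and 11.4 CPM on adenine. Controls 1 to 3 lay above every adenine library and control 4 below them all, and the log2 fold change was -0.41 (SE 0.19, edgeR adjusted p = 0.285).

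Fdft1, squalene synthase, takes the first step committed to sterols. It was at 22.7, 32.3, 20.9 and 16.9 CPM in controls and at 16.8, 21.6, 16.1 and 18.2 CPM on adenine. Control 2 stood above the other 7 libraries, which overlapped, and the log2 fold change was -0.35 (SE 0.19, edgeR adjusted p = 0.329). The count is uncertain, because 18.3% of its exon bases overlap Ctsb on the other strand, no source used here states the strand setting of the counting, and 1 pseudogene matches it.

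The other 6 late genes overlapped between diets. Cyp51, the lanosterol demethylase, had a log2 fold change of -0.31 (SE 0.21), Nsdhl, a sterol dehydrogenase, -0.18 (SE 0.22), and Sqle, the squalene epoxidase, -0.14 (SE 0.21). Msmo1, the sterol C4 methyl oxidase, was at -0.02 (SE 0.19) and Hsd17b7, a sterol ketoreductase, at 0.02 (SE 0.32). Lss, lanosterol synthase, was at 0.14 (SE 0.24), with adenine 1 and 2 at 5.80 and 5.32 CPM above all controls (3.48 to 4.81 CPM) and adenine 3 and 4 at 3.73 and 3.37 CPM.

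All 6 genes of the SREBP system and sterol transport had log2 fold changes below 0, with a median of -0.34, but not under every setting. Srebf1 kept that sign in only 10 of 19 alternatives (from -0.30 without adenine 1 to 0.15 with 1 surrogate variable), and Insig2 kept it in 17, reaching 0.08 with 1 surrogate variable. Srebf2, which encodes SREBP-2, was at 33.1, 38.9, 25.7 and 26.03 CPM in controls and at 25.7, 21.8, 21.7 and 23.1 CPM on adenine. The diets were separated only by the gap between control 3 at 25.71 and adenine 1 at 25.67 CPM, which closed with DESeq2 size factors. The log2 fold change was -0.43 (SE 0.16, edgeR adjusted p = 0.260). Srebf1, which encodes SREBP-1a and SREBP-1c from separate starts that gene counts cannot tell apart, was at 38.3, 33.98, 23.9 and 27.3 CPM in controls and at 43.8, 25.9, 25.7 and 24.2 CPM on adenine. The diets overlapped fully, with adenine 1 the highest of all 8 libraries, and the log2 fold change was -0.05 (SE 0.21, edgeR adjusted p = 0.908).

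Per base of exon, Srebf1 stood above Srebf2 in every library, although in CPM it lay below Srebf2 in controls 2 and 3. The ratio of Srebf1 to Srebf2 in RPKM (CPM per kilobase of exon) was 1.12 to 1.47 in controls and 1.34 to 2.18 on adenine, and these ranges overlapped.

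Stard4 encodes a soluble carrier that moves cholesterol between membranes. It was at 14.6, 11.6, 11.4 and 12.2 CPM in controls and at 8.36, 7.77, 10.8 and 8.41 CPM on adenine. The diets did not overlap at this scaling, with adenine 3 the closest to the controls, though they did with DESeq2 size factors, and the log2 fold change was -0.49 (SE 0.16, edgeR adjusted p = 0.236). Its highest library was control 1, not the control 2 in which most members peaked, and its diets remained apart without control 2 but not without control 3 or when scaled by library totals alone.

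Scap, the SREBP escort, was at 27.9, 28.1, 26.04 and 22.0 CPM in controls and at 23.8, 19.3, 20.8 and 21.7 CPM on adenine. Only adenine 1 exceeded the lowest control, and the log2 fold change was -0.28 (SE 0.14, edgeR adjusted p = 0.300); 13.2% of its exon bases overlap 5830462I19Rik on the other strand. Insig1, an anchor that is itself an SREBP target, was at 16.4, 28.7, 20.9 and 14.0 CPM in controls and at 14.1, 15.1, 17.0 and 14.8 CPM on adenine. The controls lay on both sides of the adenine range, and the log2 fold change was -0.39 (SE 0.20, edgeR adjusted p = 0.315).

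Insig2, the anchor that is less dependent on SREBP, was at 35.2, 45.9, 39.6 and 26.1 CPM in controls and at 30.4, 26.4, 39.6 and 29.2 CPM on adenine. The diets overlapped, and the log2 fold change was -0.23 (SE 0.19, edgeR adjusted p = 0.476). Per base of exon, Insig1 was lower than Insig2 in every library, with a ratio of 0.52 to 0.70 in controls and 0.48 to 0.64 on adenine.

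The upstream sequences of 5 members are shown because SREBPs act on sterol genes together with the factor NF-Y at sites just before the gene start: the 4 members without diet overlap that had a printable window, and Hmgcs1, which holds a sterol regulatory element. They are from RefSeq on GRCm38.p6, the reference strain and not 129/Sv, read 5′ to 3′ on the gene's strand and kept only where no annotated exon lies. The printed stretch therefore stops 88 bases short of the start for Srebf2, 22 for Acat2 and 1 for Elovl5. It reaches the start for Mvk and Hmgcs1. Capitals mark matches on either strand to TCANNCCAC (a form of the sterol regulatory element), CCAAT (the NF-Y box, read ATTGG on the other strand) or CACGTG (an E-box). The windows are at chr5:114444061-114444268 on the plus strand for Mvk, chr17:12960748-12960975 on the minus strand for Acat2, chr15:82147019-82147180 on the plus strand for Srebf2, chr9:77917115-77917363 on the plus strand for Elovl5 and chr13:119690101-119690350 on the plus strand for Hmgcs1.
Mvk: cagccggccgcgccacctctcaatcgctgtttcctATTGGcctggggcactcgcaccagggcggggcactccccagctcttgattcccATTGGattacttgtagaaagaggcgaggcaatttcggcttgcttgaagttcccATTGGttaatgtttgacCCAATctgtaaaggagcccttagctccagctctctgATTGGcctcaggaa
Acat2: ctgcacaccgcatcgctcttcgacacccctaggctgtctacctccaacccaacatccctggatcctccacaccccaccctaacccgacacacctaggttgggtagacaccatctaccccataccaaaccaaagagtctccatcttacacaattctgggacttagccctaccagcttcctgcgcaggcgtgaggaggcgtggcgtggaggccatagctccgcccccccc
Srebf2: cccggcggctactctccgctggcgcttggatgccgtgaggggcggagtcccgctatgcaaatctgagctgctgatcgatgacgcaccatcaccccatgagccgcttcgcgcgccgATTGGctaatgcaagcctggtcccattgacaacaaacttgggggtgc
Elovl5: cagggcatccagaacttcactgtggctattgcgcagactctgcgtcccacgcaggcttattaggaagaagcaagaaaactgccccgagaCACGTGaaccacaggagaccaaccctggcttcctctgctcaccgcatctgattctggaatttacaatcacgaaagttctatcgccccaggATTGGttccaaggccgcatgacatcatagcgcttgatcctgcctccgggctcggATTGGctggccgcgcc
Hmgcs1: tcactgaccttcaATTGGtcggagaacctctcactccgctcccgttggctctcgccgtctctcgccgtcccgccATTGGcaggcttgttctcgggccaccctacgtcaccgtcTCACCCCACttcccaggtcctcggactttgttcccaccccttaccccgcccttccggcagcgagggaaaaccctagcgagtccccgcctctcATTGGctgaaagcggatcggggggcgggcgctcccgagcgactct

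Mvk held 5 CCAAT boxes in 208 bases, Elovl5 held 2 with 1 E-box, Srebf2 held 1, and Acat2 held none of the 3 motifs. Hmgcs1, whose diets overlapped, held 1 sterol regulatory element and 3 CCAAT boxes. The full windows of 250 bases before the start of these genes held the same counts. RefSeq windows of 250 bases matched 27 of the 34 members, in 36 windows since some genes have several starts. CCAAT stood in 61.1% of the member windows and 33.8% of all 32851 windows, CACGTG in 16.7% and 6.02%, and TCANNCCAC in 8.33% (Acacb, Acly and Hmgcs1) and 3.52%. A match describes the letters of a window and does not show a bound site.

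The genes that supply acetyl-CoA, NADPH and palmitate had 5 of 6 members below 0 with a median log2 fold change of -0.28, and all 6 overlapped between diets. Fasn, fatty acid synthase, which builds palmitate, was at 34.1, 78.8, 17.1 and 16.6 CPM in controls and at 23.2, 14.6, 11.9 and 19.4 CPM on adenine. Controls 3 and 4 lay inside the adenine range, while control 2 was far above every other library. The log2 fold change of -1.09 (SE 0.42, edgeR adjusted p = 0.264) became -0.40 without control 2.

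Me1, the malic enzyme that makes NADPH, was the most abundant member per base of exon, at 25.5 ± 6.2 RPKM in controls (SD, n = 4). It was at 92.3, 128, 102 and 70.3 CPM in controls and at 65.9, 68.7, 76.2 and 82.1 CPM on adenine. Controls 1 to 3 lay above every adenine library and control 4 inside their range, and the log2 fold change was -0.42 (SE 0.18, edgeR adjusted p = 0.274). The transcript has 3 near-identical copies elsewhere in the genome, so its count is uncertain.

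Acss2, which makes acetyl-CoA from acetate, was at 18.9, 28.0, 21.3 and 17.5 CPM in controls and at 18.2, 19.8, 17.0 and 15.0 CPM on adenine. The diets overlapped, and the log2 fold change was -0.29 (SE 0.17, edgeR adjusted p = 0.346). Acly, ATP citrate lyase, which makes acetyl-CoA from citrate, ranged from 27.7 to 44.9 CPM in controls and from 24.9 to 31.1 CPM on adenine, a log2 fold change of -0.27 (SE 0.17).

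The acetyl-CoA carboxylases, which make malonyl-CoA, did not share the lower levels of the list. Acacb, the mitochondria-associated form, was at 140, 171, 164 and 121 CPM in controls and at 163, 155, 88.0 and 154 CPM on adenine. Adenine 3 alone lay below the controls, and the log2 fold change was -0.09 (SE 0.20), or 0.07 without adenine 3 and with upper-quartile factors. Acaca, the cytosolic form that feeds fatty acid synthesis, was at 14.6, 22.3, 15.1 and 14.7 CPM in controls and at 16.5, 24.0, 14.2 and 20.3 CPM on adenine. Adenine 2 was the highest library and adenine 3 the lowest, and the log2 fold change was 0.17 (SE 0.20), the highest of the 34; a pseudogene matches it over 6118 bases at 99.2% identity, so its count is uncertain. Acaca was a small fraction of Acacb per base of exon, with ratios of 0.052 to 0.073 in controls and 0.057 to 0.091 on adenine.

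All 6 desaturases and elongases had log2 fold changes below 0, and their median of -0.63 was the lowest of the 5 roles. Fads2, the delta-6 desaturase that starts the synthesis of long polyunsaturated fatty acids, was at 11.4, 13.1, 9.84 and 9.13 CPM in controls and at 5.44, 6.97, 5.44 and 7.93 CPM on adenine. Every adenine library lay below every control, and the means were 10.9 ± 1.8 and 6.44 ± 1.22 CPM (SD, n = 4 each). Fads2 had the lowest p of the 34 members, with a log2 fold change of -0.76 (SE 0.19) and an edgeR adjusted p of 0.171. DESeq2 gave -0.78 with an adjusted p of 0.0234, and over all alternatives the adjusted p ran from 0.0234 to 0.494. Leaving out single libraries kept the log2 fold change between -0.87 and -0.67. On counts simulated with spreads taken from the edgeR fit, DESeq2 made 52 false calls among 208, against 6 among 140 for edgeR. Of genes simulated with a log2 change of 1 in size, DESeq2 recovered 63% and edgeR 47%. Because the spreads came from edgeR, this simulation cannot rank the tools on the real counts.

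Fads1, the delta-5 desaturase, lies 81141 bases from Fads2 on chromosome 19. It was at 24.5, 31.2, 22.4 and 20.3 CPM in controls and at 19.5, 13.9, 23.4 and 19.5 CPM on adenine. Adenine 3 lay among the controls, and the log2 fold change was -0.37 (SE 0.18, edgeR adjusted p = 0.305). Per base of exon, Fads1 exceeded Fads2 in every library, by 1.47 to 1.63 times in controls and by 1.36 to 2.94 times on adenine, where adenine 1 and 3 had ratios of 2.45 and 2.94.

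Elovl5, which elongates polyunsaturated fatty acids, was at 41.7, 35.2, 32.5 and 35.6 CPM in controls and at 23.0, 23.8, 31.4 and 23.7 CPM on adenine. The diets did not overlap at this scaling, although adenine 3 came close to the lowest control and passed it with DESeq2 size factors. The log2 fold change was -0.51 (SE 0.15, edgeR adjusted p = 0.216). Elovl6, which elongates palmitate, was far less abundant at 1.81, 3.69, 1.83 and 2.22 CPM in controls and 1.32, 2.20, 1.82 and 2.32 CPM on adenine. Its diets overlapped at a log2 fold change of -0.32 (SE 0.33), and Elovl5 was 17.4 to 42.2 times as abundant per base of exon in controls and 18.7 to 31.9 times on adenine.

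**Figure D3:**
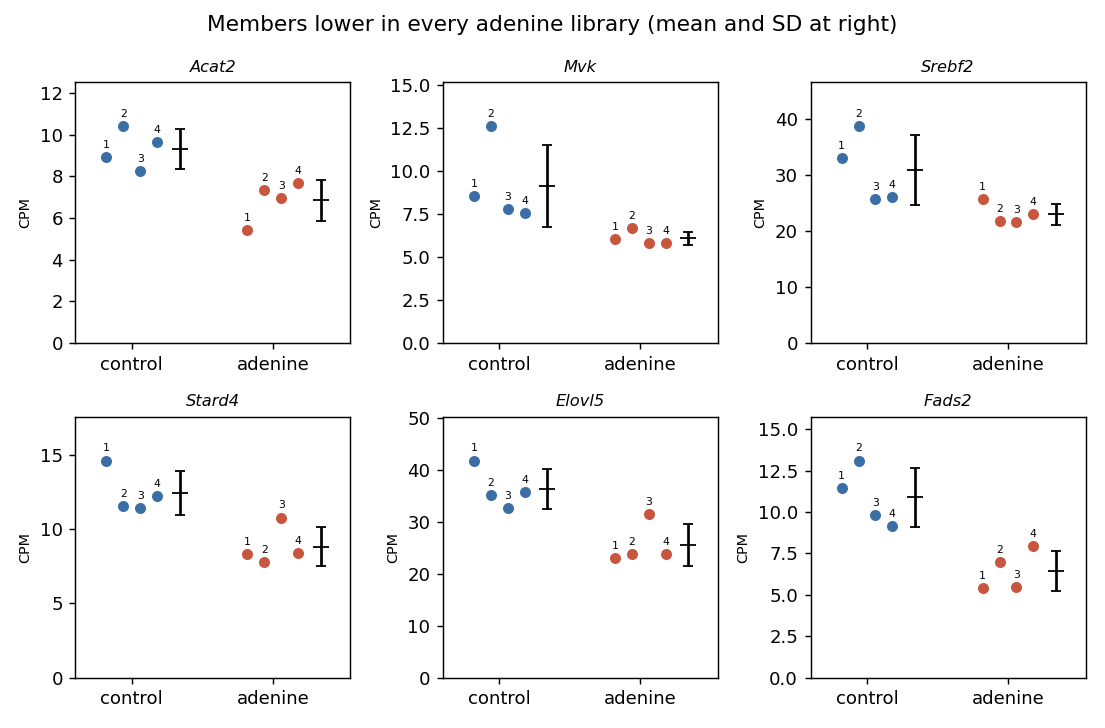
CPM (vertical axes, from 0) of the 6 genes whose diets did not overlap, with 1 point per numbered library and the mean and SD at the right of each group of 4. Control 2 is the highest point for Acat2, Mvk, Srebf2 and Fads2, and adenine 3 is the highest adenine point for Stard4 and Elovl5.

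The stearoyl-CoA desaturases make monounsaturated fatty acids. Scd1 was at 42.5, 118, 16.5 and 14.7 CPM in controls and at 25.1, 9.11, 14.0 and 21.0 CPM on adenine. Its controls spanned a wider range than those of any other member relative to their mean, with controls 3 and 4 inside the adenine range, and the log2 fold change of -1.47 (SE 0.56, edgeR adjusted p = 0.262) became -0.50 without control 2. Scd2 was at 50.6, 38.3, 20.6 and 24.0 CPM in controls and at 17.0, 20.1, 22.3 and 13.2 CPM on adenine. Only adenine 3 lay above the lowest control, and the log2 fold change was -0.88 (SE 0.26, edgeR adjusted p = 0.218), or -0.81 without control 2 and -0.62 without control 1, its highest library. The genes lie 87590 bases apart on chromosome 19 and share 95.5% identity over 623 bases, so reads there may have been split. The ratio of Scd1 to Scd2 per base of exon was 0.94, 3.44, 0.90 and 0.68 in controls and 1.65, 0.51, 0.70 and 1.77 on adenine, so neither gene was the more abundant throughout.

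Of the 10 adipocyte markers, 6 were also highest in control 2 (Adipoq, Plin1, Cidec, Retn, Cfd and Pck1). Lipe was highest in adenine 1, Lep and Adrb3 in adenine 2, and Fabp4 was lowest in control 2. Adipoq, the fat cell hormone adiponectin, was at 16.1 CPM there and at 0.75 to 3.80 CPM in the other 7 libraries, and Cfd, adipsin, was at 57.8 CPM there and at 1.38 to 18.8 CPM elsewhere. The 10 adipocyte markers summed to 720 to 1005 CPM in controls and 682 to 1130 on adenine, a sum made mostly of Fabp4 (578 to 1051 CPM), which endothelial cells also express. Without Fabp4, a choice made after its values were seen, the other 9 summed to 57.7, 142, 33.9 and 40.0 CPM in controls and 79.6, 51.4, 46.8 and 69.5 CPM on adenine. Control 2 was the highest, control 1 lay inside the adenine range, and controls 3 and 4 lay below every adenine library. The part of adipocyte RNA in the Fasn and Scd1 values was not tested.

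**Figure D4:**
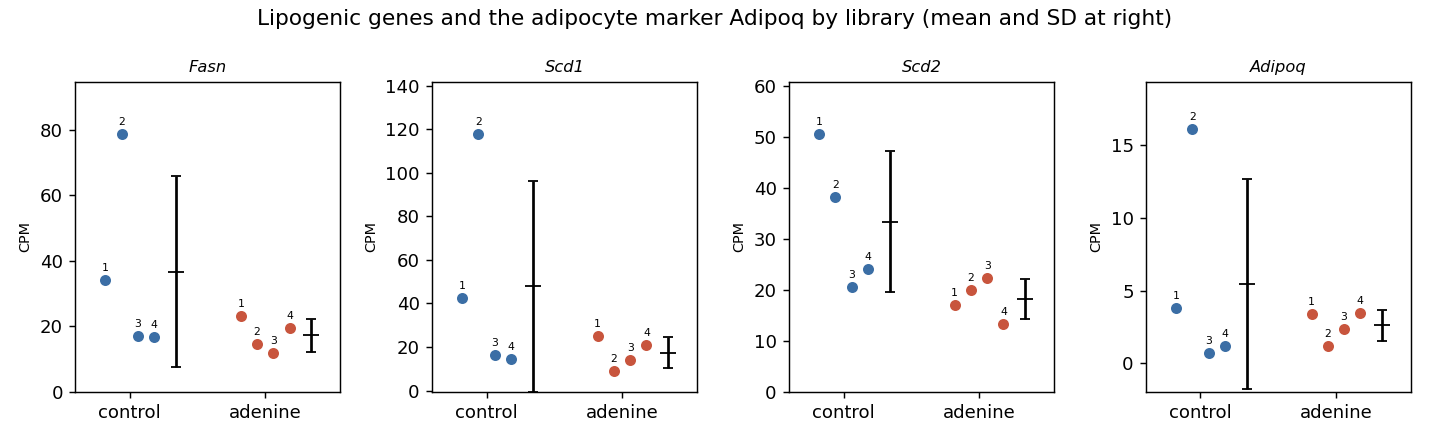
CPM of Fasn, Scd1, Scd2 and the adipocyte marker Adipoq, with 1 point per numbered library and the mean and SD at the right of each group of 4; axes reach below 0 only where an SD bar does. Control 2 is the highest point for Fasn (78.8), Scd1 (118) and Adipoq (16.1), while control 1 is the highest for Scd2 (50.6).

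Set side by side, the sterol branch (16 synthesis genes) had 13 members below 0 with a median log2 fold change of -0.29, and the fatty acid branch (12 genes) had 11 below 0 with a median of -0.39. The difference between the branches was not tested. Without control 2 the medians were -0.15 and -0.25, and with 1 surrogate variable in the fit -0.20 and -0.21. The surrogate variable partly followed diet, so that fit can remove diet difference itself. In the sterol branch 5 of 16 genes were lower at an unadjusted p under 0.05 and 2 without overlap, and in the fatty acid branch 6 of 12 and 2, where 6.63% and 3.84% of all genes were.

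Related genes outside the 34 gave a mixed picture, and edgeR called 0 in these lists in either direction, and among the 53 tested an unadjusted p under 0.05 was found for 5 that were lower (9.43%, against 6.63% of all genes) and 3 that were higher (5.66%, against 10.9% of all genes). DESeq2 called 1 of them lower, Rxra, and limma-voom called 0. Of 15 other sterol genes 9 were below 0, with a median log2 fold change of -0.18. Soat1, which esterifies cholesterol for storage, was at 33.8 CPM in adenine 3, at 11.9 to 13.8 CPM in adenine 1, 2 and 4 and at 9.09 to 14.2 CPM in controls. Its log2 fold change was 0.69 (SE 0.30), and the high library was the one with the high macrophage sum, whose part was not tested.

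Of 20 other genes of fatty acid and glycerolipid synthesis 15 were below 0, with a median of -0.17. Hacd3, a dehydratase of the elongation cycle, was lower without overlap only at the TMM scaling, at a log2 fold change of -0.42 (SE 0.15), and Mcat, of mitochondrial fatty acid synthesis, had -0.39 (SE 0.16). Of 8 tested genes of the SREBP processing and degradation machinery 7 were below 0, with a median of -0.27. Rnf145, a ubiquitin ligase of the endoplasmic reticulum, had a log2 fold change of -0.35 (SE 0.15).

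Of 10 genes of the LXR and ChREBP arm, which adds sterol and glucose sensing to the same targets, 6 were below 0 with a median of -0.07. Rxra, the partner receptor of LXR and of many other nuclear receptors, was at 68.1, 67.5, 60.5 and 53.3 CPM in controls and at 43.6, 45.9, 39.3 and 42.8 CPM on adenine. The diets did not overlap under any scaling run, and the log2 fold change was -0.54 (SE 0.14), with adjusted p-values of 0.170 in edgeR and 0.0228 in DESeq2, and of 0.0228 to 0.477 over all alternatives. Abcg5, a sterol exporter subunit, was at 0.34 to 2.06 CPM in controls and 1.27 to 2.62 CPM on adenine, with a log2 fold change of 1.09 (SE 0.48, edgeR adjusted p = 0.279).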

How the data were processed

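The data are RNA-seq of 8 mouse heart libraries, with groups and numbers from the sample titles. The authors deposited unscaled whole-number read counts of genes. STAR 2.7.6a, FastQC 0.11.9 and genome build GRCm38.p6 are listed in the submitters' processing notes. Counting program, annotation and strand setting: not given in the sources used here. All count columns matched a sample, leaving 0 unmatched.

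The test was run with edgeR 4.0.16 under R 4.3.3 (default low-count filter by group, TMM factors, quasi-likelihood F-test of diet, Benjamini-Hochberg over 20093 genes). Calls used an adjusted p under 0.05. SEs were derived from the F statistic. DESeq2 1.42.0, limma-voom (limma 3.58.1), a surrogate variable (sva 3.50.0), other scalings and filters, a replicate block and omission of each library were alternatives. The code was tested on simulated counts with 200 changed genes and spreads taken from the edgeR fit. False calls there were 6 of 140 in edgeR, 52 of 208 in DESeq2 and 3 of 130 in limma-voom. Changes of log2 1 in size were recovered for 47%, 63% and 43% of genes in the same order. Exon lengths, positions and overlaps came from a GENCODE annotation of GRCm38, with near-identical copies found by blastn 2.17.0 (at least 95% identity over 200 bases). RPKM was computed from these lengths, which merge the exons of all annotated transcripts of a gene. No 2 libraries were duplicates.

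The members and lists were chosen with earlier results of these data known. Library values are given for the 6 regulators, all members without overlap, the 3 members of lowest p in each other role and the paralogue pairs. The related genes to report were the 2 of lowest p in each list. Rxra has its library values, and the others have ranges or only a log2 fold change. Some related genes that this rule selects are not reported here. Counting error limits genes near 1 CPM, and 4 libraries per diet limit all tests.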

Additional observations from a re-analysis of the deposited data

Results flagged for a closer look

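Of 68 groups of 4 libraries (34 members in 2 diets), 5 had 1 library whose gap to the nearest other exceeded Dixon's 95% critical value, a rule that chance meets in about 1 in 20 groups. Srebf1 stood at 43.8 CPM in adenine 1, above a range of 24.2 to 25.9 CPM in adenine 2 to 4. Hsd17b7 stood at 1.28 CPM in adenine 1, below a range of 2.39 to 2.61 CPM in adenine 2 to 4. Acacb stood at 88.0 CPM in adenine 3, below 154 to 163 CPM in adenine 1, 2 and 4. Elovl5 stood at 31.4 CPM in that library, above 23.0 to 23.8 CPM in adenine 1, 2 and 4. Acaca stood at 22.3 CPM in control 2, above 14.6 to 15.1 CPM in controls 1, 3 and 4.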

How the results depend on the processing

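The branch medians stayed below 0 under all 19 alternatives run. Over the omission of single libraries the sterol median ran from -0.38 to -0.15, the fatty acid median from -0.49 to -0.25, the count of members below 0 from 27 to 32, and the count of members lower without overlap from 4 to 10. That last count was 3 with DESeq2 size factors and 1 with upper-quartile factors. Upper-quartile factors moved the median of all genes from 0.05 to 0.20, and relative to it the branch medians were -0.33 and -0.44, against -0.34 and -0.45 as reported, with 25 of 34 members below 0. Without a low-count filter that median was 0.18. With 1 surrogate variable, Fasn and Scd1 had log2 fold changes of -0.25 and -0.01. In that fit 28 members were below 0 and 4 were lower at an unadjusted p under 0.05 (4.30% of all genes). The variable ran from -0.0915 to 0.572 in controls and from -0.659 to 0.228 on adenine. It partly followed diet, so that fit can remove diet difference itself. With both libraries numbered 2 left out, an alternative chosen after seeing the data, Fasn and Scd1 were at -0.31 and -0.28. The causes of these shifts were not tested.

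Genes called over the whole table numbered 8 higher and 0 lower in edgeR. DESeq2 called 153 higher and 175 lower, 1 of them a member (Fads2) and 1 a related gene (Rxra). limma-voom called 5 higher and 0 lower, and upper-quartile factors gave 18 higher and 1 lower. Robust edgeR called 12 higher and 6 lower, and the fit with no filter 8 higher and 1 lower. With 1 surrogate variable 40 were higher and 6 lower. With both libraries numbered 2 left out 6 were higher and 1 lower. An adjusted p under 0.1 gave 21 higher and 10 lower. Leaving out single libraries gave 1 to 37 higher and 0 to 30 lower, both highest without adenine 3. The cause was not tested.

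Same-numbered libraries of the 2 diets deviated together with correlations of 0.086, -0.50, -0.16 and 0.30, so the numbers were not taken as pairs. A replicate block gave 16 genes higher and 16 lower over the table, 0 members called, and branch medians of -0.28 and -0.38.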
